A study of Sus scrofa with 4 samples.

Results

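The miRNAs miR-193a, miR-365 and miR-455, which are linked to brown fat, were followed in cultured pig vascular stem cells before and after adipogenic induction. The 3 miRNAs were chosen with earlier results of these data known. Their entries were picked by name, as the pig hairpins whose name without a copy number is mir-193a, mir-365 or mir-455. This gave 3 of the 189 miRNAs with a read and 4 of the 206 hairpins, since mir-365 is listed as 2 copies, mir-365-1 and mir-365-2.

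The 4 libraries form 4 groups with 1 library each (n = 1). SVSC MDI and SVSC are primary vascular stem cells of subcutaneous fat, with and without the MDI induction, and IVSC MDI and IVSC are the corresponding cells of the longissimus dorsi, a back muscle. MDI stands for a medium with insulin at 5 mg/l, the glucocorticoid dexamethasone at 0.25 µM and IBMX, which raises cyclic AMP, at 0.5 mM. After 3 days the medium no longer held IBMX or dexamethasone, from day 6 the cells had growth medium again, and they were kept for a further 3 or 4 days, without a record of which applied to which culture. All cells were at passage 1, and all media held 20% serum. The labels do not say whether the cultures came from 1 animal, so a ratio between 2 libraries includes any difference between animals or preparations, and no replicate check was possible.

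Brown fat burns lipid to make heat, and in the mouse its formation is held back by repressors that several miRNAs switch off. In mouse brown preadipocytes the cluster of miR-193b and miR-365 promotes brown fat differentiation, in part by lowering the repressor Runx1t1, although mice that lack the cluster were later reported to form normal brown fat. miR-193a is the close relative of miR-193b from another genomic cluster, and miR-193b was not among the miRNAs detected here. In mouse fat, miR-455 is induced by cold and lowers Runx1t1, Necdin and Hif1an, which favours a brown program. Domestic pigs carry a disrupted UCP1 gene, the heat-producing uncoupler of brown fat, and small RNA libraries do not measure UCP1 or other mRNAs, so the name of the group describes what these miRNAs are known for elsewhere and not the fat type of these cells. In the pig gene table of RefSeq (assembly Sscrofa11.1), which matched all 4 hairpins, MIR365-2 and MIR193A are immediate neighbours on 1 chromosome, MIR365-1 lies on another chromosome within the non-coding gene LOC110259927, and MIR455 lies within the collagen gene COL27A1.

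Abundance is given as CPM, the reads on a hairpin per 1000000 miRNA reads of the library, and a range after a value is its exact 95% counting interval. The libraries held 2573249 (SVSC MDI), 17937121 (SVSC), 14810112 (IVSC MDI) and 13252168 (IVSC) miRNA reads, so SVSC MDI was the least precise. As deposited, hairpins took 55.01% of all reads in SVSC MDI and 70.2% to 77.0% in the other libraries. The smooth muscle and perivascular miRNAs miR-143 and miR-145 were abundant in every library, at 256601 to 397740 CPM summed. Nearly all of this was miR-143, at 255706 to 390300 CPM, while miR-145 had 895 to 7440 CPM. Few miR-143 reads lay on its listed mature miRNA, with 528 in SVSC MDI, 3348 in SVSC, 2334 in IVSC MDI and 2045 in IVSC. The summed level of 5 skeletal muscle miRNAs was 888 CPM in SVSC MDI and 1853 CPM in SVSC, and 1137 CPM in IVSC MDI and 6275 CPM in IVSC. Of 6 epithelial miRNAs 1 was detected, with at most 9 reads, while miR-200a, miR-200b, miR-200c, miR-141 and miR-429 were at 0 in every library, as were miR-223 and miR-144 of 4 blood cell miRNAs. The sum of the skeletal muscle miRNAs was thus lower in both MDI libraries, but its members did not move together. In SVSC miR-1 fell, with 661 CPM in SVSC MDI and 1818 CPM in SVSC, while miR-133a and miR-133b rose, and the median log2 ratio of the 4 compared was 1.69. In IVSC 2 of the 5, miR-206 and miR-133b, fell and none rose. Beside this, 34.2% of all miRNAs compared rose and 21.9% fell in SVSC, and 16.4% rose and 23.7% fell in IVSC. miR-206 held most of the sum in IVSC, at 4874 CPM. It had 140 CPM in IVSC MDI, 2.79 CPM in SVSC and 1.55 CPM in SVSC MDI. The part of these miRNAs in the results below was not tested. In such bulk samples fewer cells of a type and less RNA per cell cannot be told apart.

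miR-193a showed the largest change with MDI of the 3 miRNAs, in both cultures. It stood at 267 CPM (248 to 288) in SVSC MDI and 38.0 CPM (35.2 to 40.9) in SVSC, on 688 and 681 reads. It stood at 235 CPM (227 to 243) in IVSC MDI and 61.5 CPM (57.3 to 65.9) in IVSC, on 3474 and 815 reads. Both MDI libraries were thus above both undifferentiated ones, and no counting intervals of its 4 levels overlapped.

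miR-455 followed the same order with smaller steps. Its level was 219 CPM (201 to 238) in SVSC MDI and 70.6 CPM (66.7 to 74.6) in SVSC. In the muscle cells it was 217 CPM (210.0 to 225) in IVSC MDI and 108 CPM (103 to 114) in IVSC. The MDI libraries overlapped in their intervals, so on this scale no difference between the cultures was detectable after induction, while before induction SVSC lay below IVSC. With other scalings and kinds of reads, the log2 ratio of SVSC MDI over IVSC MDI ran from -0.52 to 0.01, so this depended on the processing.

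miR-365, summed over its copies, differed least between libraries. Its level was 942 CPM (905 to 981) in SVSC MDI and 516 CPM (505 to 527) in SVSC. In the muscle cells it was 759.8 CPM (746 to 774) in IVSC MDI and 527 CPM (515 to 539) in IVSC. The 2 undifferentiated libraries had overlapping intervals.

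**Figure D1:**
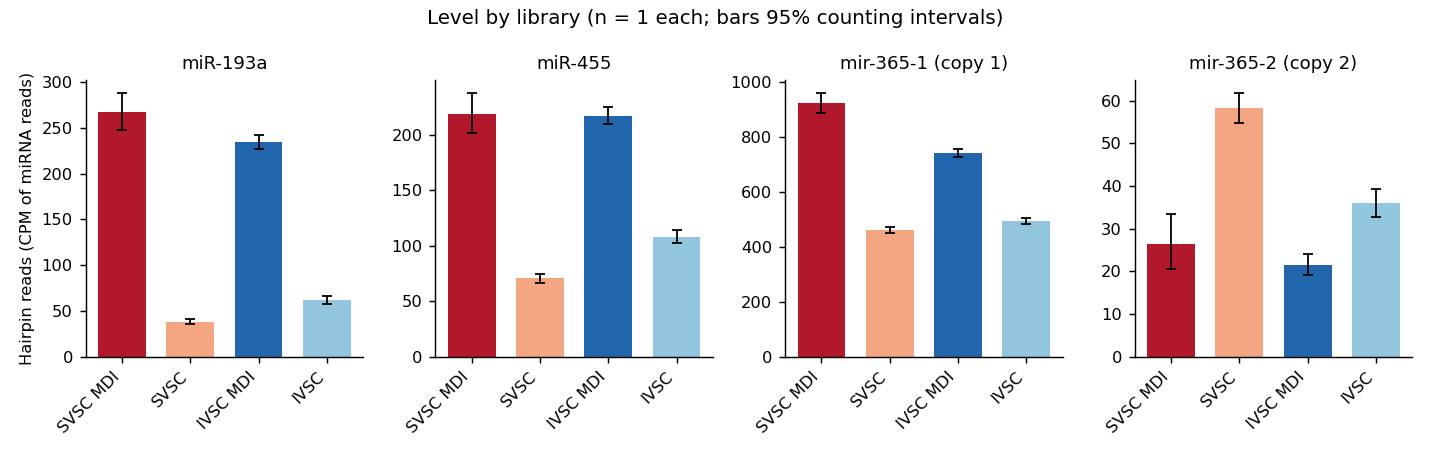
Hairpin reads in CPM (y axis, linear, from 0, its own scale in each panel) for miR-193a, miR-455 and each copy of mir-365 in the 4 libraries (n = 1 each); error bars are exact 95% Poisson counting intervals. miR-193a, miR-455 and mir-365-1 stand higher in both MDI libraries, and mir-365-2 stands lower in both.

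A miRNA was called higher or lower when it reached 10 CPM in at least 1 library of a pair, its ratio was at least 2-fold and the interval of the ratio excluded 1; rose and fell are used for such calls only. miR-193a rose 7.04-fold with MDI in SVSC (6.33 to 7.84) and 3.81-fold in IVSC (3.53 to 4.12). miR-455 rose 3.11-fold in SVSC (2.81 to 3.43) and 2.01-fold in IVSC (1.89 to 2.14). miR-365 had a ratio of 1.83 in SVSC (1.75 to 1.91) and 1.44 in IVSC (1.40 to 1.49), short of 2-fold in both. Hence 2 of the 3 miRNAs were called higher in each culture, beside 34.2% of 146 miRNAs compared in SVSC and 16.4% of 152 in IVSC. None of the 3 was called lower, beside 21.9% of miRNAs in SVSC and 23.7% in IVSC. In SVSC, where calls higher were common, miR-193a held place 13 by ratio and miR-455 place 33. In IVSC, miR-193a held place 5, miR-455 place 25 and miR-365 place 42. miR-365 held place 53 in SVSC. The median log2 ratio of all miRNAs compared was 0.41 in SVSC and -0.04 in IVSC, against 2.82 and 1.93 for miR-193a.

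**Figure D2:**
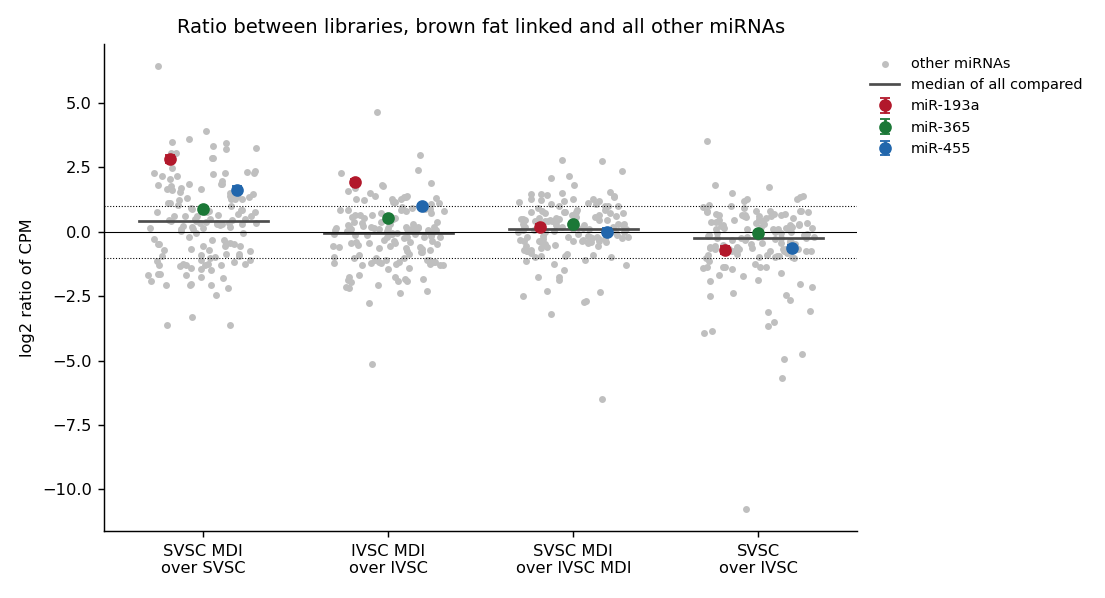
log2 ratio of CPM (y axis) for each pair of libraries (x axis), with 1 grey point for each other miRNA compared, the median of all as a line, and miR-193a, miR-365 and miR-455 in colour with exact 95% counting intervals; dotted lines mark 2-fold. In both MDI comparisons miR-193a lies above 2-fold and far above the median, and in both comparisons of origin all 3 lie within 2-fold.

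The size of these changes depended on the scaling, while under the 4 other scalings tried the log2 ratio of each of the 3 miRNAs with MDI stayed above 0. With TMM factors every log2 ratio in SVSC shifted by -0.50, and in IVSC by -0.04. Under TMM, DESeq2 size factors, all reads and miRNA reads without miR-21, miR-193a kept log2 ratios of at least 2.31 in SVSC and 1.89 in IVSC and remained called. miR-455 remained called in SVSC under these scalings, while in IVSC its log2 ratio was 0.97 with TMM and 0.99 with DESeq2 factors, just short of 2-fold. A 2.01-fold ratio is therefore at the edge of the call.

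**Figure D3:**
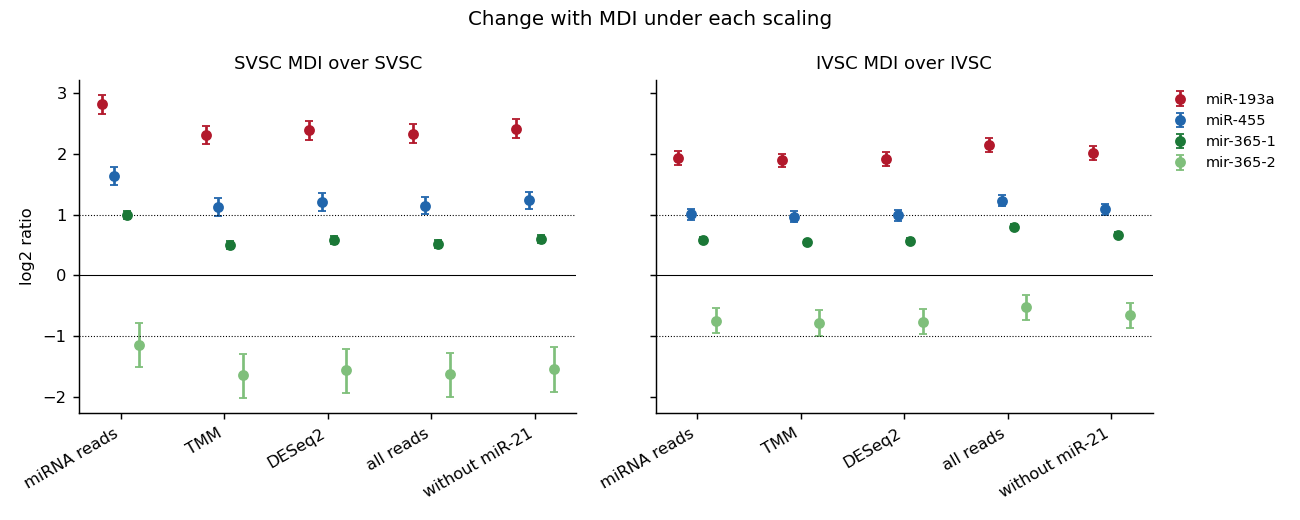
log2 ratio with MDI (y axis) of miR-193a, miR-455 and each copy of mir-365 under 5 scalings (x axis), for SVSC MDI over SVSC on the left and IVSC MDI over IVSC on the right; error bars are exact 95% counting intervals and dotted lines mark 2-fold. Other scalings lower all points of the left panel by 0.40 to 0.50, mir-365-1 stays above 0 and mir-365-2 below 0 throughout.

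An effect of MDI shared by both cultures was tested on all 4 libraries with edgeR's quasi-likelihood test, with the origin of the culture in the model and Benjamini-Hochberg adjustment over 179 miRNAs. Here the libraries of each state act as the replicates, and with 1 residual degree of freedom the spread is an estimate pooled over all miRNAs. miR-193a was higher with MDI by 2.20 on the log2 scale (SE 0.68, adjusted p = 0.0261, higher in 2 of 2 cultures), where 6.15% of miRNAs were called higher and 4.47% lower. This call was lost in the model without origin (adjusted p = 0.130), and it was lost as well when any 1 of the 4 libraries was left out, which took origin out of the model too (adjusted p from 0.0783, without IVSC MDI, to 0.268, without SVSC). miR-455 had a shared log2 change of 1.15 (SE 0.66, adjusted p = 0.279) and miR-365 one of 0.53 (SE 0.55, adjusted p = 0.640), and neither passed the test.

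The copies of mir-365 went opposite ways with MDI. The files assign every mature read of mir-365 to 1 copy, so that all 28876 such reads are unique to a copy, whereas the next highest miRNA with copies, miR-128, has 17.5% unique reads. The median over the 15 miRNAs with copies and at least 100 mature reads, miR-365 among them, is 0.267%. mir-365-1, the copy with most of the reads, had 924 CPM (887 to 962) in SVSC MDI and 461 CPM (451 to 471) in SVSC, and 742 CPM (728 to 756) in IVSC MDI and 494 CPM (482 to 506) in IVSC. It rose 2.00-fold in SVSC (1.91 to 2.10), a call lost under the 4 other scalings at 1.41-fold to 1.52-fold, and had a ratio of 1.50 in IVSC (1.46 to 1.55). Counted hairpin by hairpin, 37% of 162 hairpins were called higher and 21% lower in SVSC, and 16.7% higher and 22.6% lower of 168 in IVSC.

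mir-365-2 had 26.4 CPM (20.5 to 33.5) in SVSC MDI and 58.1 CPM (54.7 to 61.8) in SVSC, on 68 and 1043 reads. In the muscle cells it had 21.5 CPM (19.2 to 24.0) in IVSC MDI and 35.9 CPM (32.8 to 39.3) in IVSC, on 318 and 476 reads. It fell 2.20-fold in SVSC (1.72 to 2.86) and had a ratio of 0.598 in IVSC (0.517 to 0.690). On all its reads both MDI libraries were below both undifferentiated ones, though the intervals of SVSC MDI and IVSC overlapped. For its genomic neighbour mir-193a both MDI libraries were above both undifferentiated ones. Few of its mature reads matched the listed sequence exactly, from 3.22% in IVSC to 14.6% in SVSC MDI. Whether the 2 copies list the same mature sequence is not known, so opposite responses of 2 loci cannot be concluded.

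The balance of the copies is free of the scaling. mir-365-2 held 2.78% (2.17 to 3.51) of the mir-365 reads in SVSC MDI and 11.2% (10.6 to 11.9) in SVSC. It held 2.81% (2.52 to 3.14) in IVSC MDI and 6.78% (6.20 to 7.39) in IVSC. After MDI the cultures thus had overlapping shares, and before MDI the share was higher in SVSC. With the copies fitted as separate features, neither passed edgeR's test of a shared MDI effect (log2 0.53, adjusted p = 0.524 for mir-365-1 and log2 -1.20, adjusted p = 0.366 for mir-365-2). Before MDI the ratio of SVSC over IVSC was 0.934 for mir-365-1 (0.904 to 0.965) and 1.62 for mir-365-2 (1.45 to 1.81), and neither was called, beside 7.32% of 164 hairpins higher and 20.7% lower. After MDI the ratio of SVSC MDI over IVSC MDI was 1.25 for mir-365-1 (1.19 to 1.30) and 1.23 for mir-365-2 (0.933 to 1.60), again without a call, beside 17.8% of 163 hairpins higher and 9.2% lower. The way the counting divided reads between the copies is unstated, so the level of each copy is uncertain.

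The position of the reads on the hairpin set the miRNAs apart. For mir-365-1, 97.3% of the reads lay on the listed mature miRNA in SVSC MDI, 92.1% in SVSC, 98.4% in IVSC MDI and 97.8% in IVSC. For mir-455 these shares were 63.8%, 68.2%, 66.6% and 61.9% in the same order of libraries. For mir-193a they were 57.6% (53.8 to 61.3) in SVSC MDI and 54.04% (50.2 to 57.8) in SVSC, but 32.1% (30.5 to 33.6) in IVSC MDI and 40.6% (37.2 to 44.1) in IVSC. The muscle cells thus had more of the mir-193a reads on the rest of the hairpin, in both states. No read of these hairpins was listed on the star strand, and only 9 hairpins of a library had any such reads, so reads of the opposite arm may stand among those on the rest of the hairpin. The share of the star strand was therefore not estimated.

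**Figure D4:**
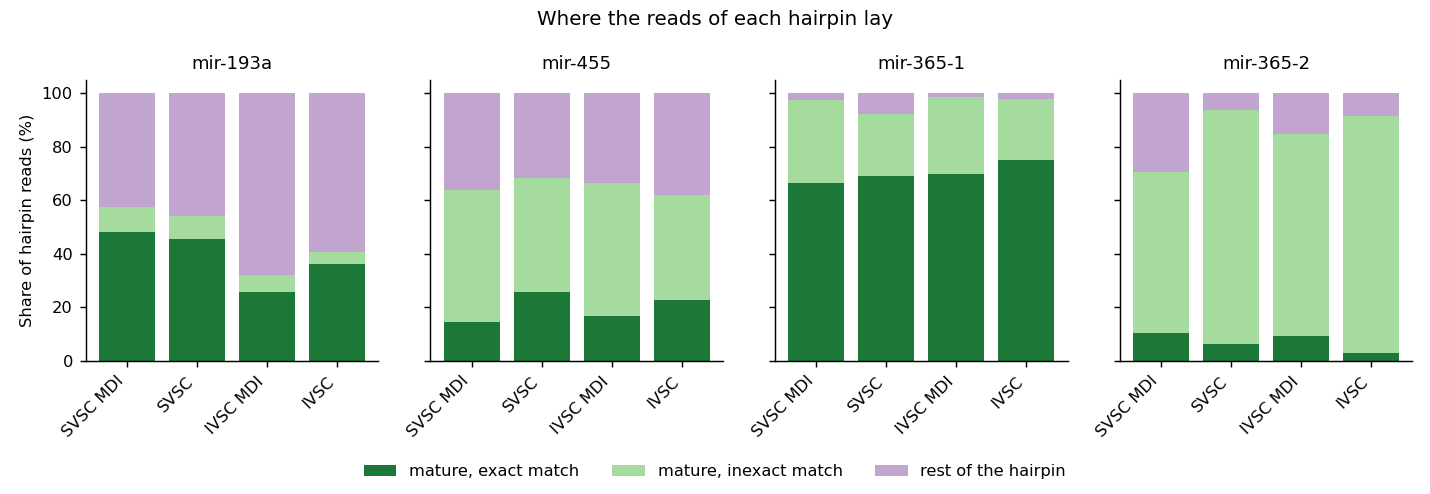
Share of the hairpin reads in % (y axis) that match the listed mature miRNA exactly, lie on it without an exact match, or lie on the rest of the hairpin, for each of the 4 hairpins in each library (x axis, n = 1 each). mir-193a has most of its reads on the rest of the hairpin in IVSC MDI (67.9%) and IVSC (59.4%), and mir-365-2 has few exact matches in any library.

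For miR-193a both kinds of reads were higher with MDI, with ratios whose intervals overlapped in SVSC and did not in IVSC. On the scale of all miRNA reads, its mature reads had a ratio of 7.50 in SVSC (6.49 to 8.67) and 3.01 in IVSC (2.66 to 3.42). Reads on the rest of the hairpin had a ratio of 6.50 in SVSC (5.53 to 7.65) and 4.36 in IVSC (3.95 to 4.82). The 2 kinds also placed the cultures in opposite order after MDI. Mature reads stood at 153.9 CPM in SVSC MDI and 75.2 CPM in IVSC MDI, and rest-of-hairpin reads at 113 CPM in SVSC MDI and 159 CPM in IVSC MDI.

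For miR-455 both kinds increased as well. Its mature reads had a ratio of 2.91 in SVSC (2.56 to 3.29) and 2.16 in IVSC (2.00 to 2.34), and its rest-of-hairpin reads 3.53 in SVSC (2.97 to 4.19) and 1.76 in IVSC (1.59 to 1.96).

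The opposite course of the mir-365 copies was seen on mature reads. Mature reads of mir-365-1 had a ratio of 2.12 in SVSC (2.02 to 2.22) and 1.51 in IVSC (1.46 to 1.56). Those of mir-365-2 had a ratio of 0.342 in SVSC (0.250 to 0.457) and 0.555 in IVSC (0.475 to 0.648). On the rest of the hairpin the pattern turned round in SVSC, with 0.684 (0.521 to 0.885) for mir-365-1 and 2.18 (1.25 to 3.65) for mir-365-2, the ratio of mir-365-2 resting on 20 reads in SVSC MDI and 64 in SVSC. On exact reads the copies did not go opposite ways in IVSC, with a ratio of 1.39 for mir-365-1 (1.34 to 1.44) and 1.92 for mir-365-2 (0.986 to 3.91), on 30 and 14 exact reads of mir-365-2 in IVSC MDI and IVSC. In SVSC the exact-read ratio was 1.92 for mir-365-1 (1.82 to 2.04) and 0.718 for mir-365-2 (0.278 to 1.56), whose interval includes 1.

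How closely the mature reads matched the listed sequence also moved with MDI. Of the mature reads of miR-455, 22.8% (18.5 to 27.5) matched exactly in SVSC MDI and 37.7% (34.4 to 41.0) in SVSC. In the muscle cells 25.5% (23.6 to 27.4) matched in IVSC MDI and 36.6% (33.5 to 39.9) in IVSC. The intervals of MDI and undifferentiated libraries did not overlap in either culture. Among 92 miRNAs with at least 100 mature reads in every library, the median change of this share was -0.97 percentage points in SVSC and -1.21 in IVSC, against -14.9 and -11.2 points for miR-455, the 14th and 10th lowest. On exact reads alone, scaled to all exact reads, miR-455 had ratios of 1.34 in SVSC (1.04 to 1.71) and 1.60 in IVSC (1.39 to 1.84), below the call. Scaled to all miRNA reads, its exact-read ratios were 1.76 in SVSC (1.36 to 2.25) and 1.50 in IVSC (1.31 to 1.73). Which culture had the larger exact-read ratio thus depended on the scaling, while both stayed short of 2-fold.

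miR-193a matched exactly in 83.6% of its mature reads in SVSC MDI and 84.5% in SVSC, a difference within the intervals (79.6 to 87.1 in SVSC MDI, 80.4 to 88.1 in SVSC). In the muscle cells it matched in 80.1% (77.6 to 82.4) in IVSC MDI and 89.4% (85.6 to 92.5) in IVSC. mir-365-1 matched exactly in 68.1% in SVSC MDI and 74.8% in SVSC, and in 70.8% in IVSC MDI and 76.7% in IVSC. In mir-365-2 exact matches were rare, at 14.6% in SVSC MDI, 6.95% in SVSC, 11.1% in IVSC MDI and 3.22% in IVSC, on 7 to 68 exact reads. The files do not state in what an inexact read may differ.

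The response of the subcutaneous cells was set against that of the muscle cells. The log2 change with MDI was larger in SVSC than in IVSC by 0.88 for miR-193a (0.70 to 1.07), 0.63 for miR-455 (0.46 to 0.80) and 0.34 for miR-365 (0.26 to 0.42). Over all miRNAs at 10 CPM or more the median of this difference was 0.53, with miR-193a and, slightly, miR-455 above it and miR-365 below it. On mature reads, scaled to all mature reads and not to all miRNA reads, the difference was 1.56 for miR-193a (1.29 to 1.83). It was 0.67 for miR-455 (0.46 to 0.88) and 0.64 for miR-365 (0.56 to 0.72). The median on this scale was 0.68, so that miR-193a alone of the 3 was above it. Scaling decided the rest. With TMM factors the differences were 0.42 for miR-193a, 0.16 (-0.01 to 0.33) for miR-455 and -0.12 (-0.20 to -0.05) for miR-365. No p-value belongs to these differences, which rest on 1 library a group.

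Origin made less difference than MDI. Before induction, the ratio of SVSC over IVSC was 0.617 for miR-193a (0.557 to 0.684), 0.653 for miR-455 (0.605 to 0.704) and 0.979 for miR-365 (0.949 to 1.01). After induction, the ratio of SVSC MDI over IVSC MDI was 1.14 for miR-193a (1.05 to 1.24), 1.01 for miR-455 (0.920 to 1.10) and 1.24 for miR-365 (1.19 to 1.30). None reached 2-fold, beside 7.43% of 148 miRNAs higher and 20.9% lower before induction and 17.7% of 147 higher and 10.2% lower after it. On mature reads alone, scaled to all mature reads, miR-193a was 2.08-fold higher in SVSC MDI than in IVSC MDI (1.85 to 2.34). In edgeR's quasi-likelihood test of a shared origin effect, in which 0.559% of miRNAs were higher and 2.23% lower in the subcutaneous cells, the adjusted p was 0.996 for each of the 3 miRNAs, with log2 differences of -0.09 (SE 0.65) for miR-193a, 0.30 (SE 0.55) for miR-365 and -0.14 (SE 0.65) for miR-455.

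The miRNAs whose levels were most like those of the 3 were sought by the Euclidean distance of centred log2(CPM + 1) over the 4 libraries, among 154 others at 10 CPM or more. Nearest to miR-193a were miR-149 (distance 0.43), miR-145 (0.52), the contractile smooth muscle miRNA, and miR-574 (0.62), where the median miRNA lay at 2.36. miR-145 had 7440 CPM in SVSC MDI and 895 CPM in SVSC, and 5605 CPM in IVSC MDI and 1058 CPM in IVSC. Nearest to miR-455 were miR-324 (0.22), miR-99a (0.31) and miR-342 (0.44), and nearest to miR-365 were miR-146a (0.17), miR-181b (0.30) and miR-424 (0.33). The 3 miRNAs were not among each other's nearest. By distance from miR-193a, miR-455 held place 15 and miR-365 place 38.

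Other miRNAs with a reported part in brown or beige fat were listed by the direction of that part in mouse or human cells. These lists were drawn up with earlier results of these data known. Of 18 names linked to more brown or beige activity, 11 were detected, miR-193a, miR-365 and miR-455 among them. Of the 8 detected others, 7 were compared in each culture, 4 of them rose in SVSC and 3 in IVSC, and 1 fell in each. Over all miRNAs compared, 34.2% were called higher and 21.9% lower in SVSC, and 16.4% higher and 23.7% lower in IVSC. Their median log2 ratio was 2.28 in SVSC and 0.85 in IVSC, beside medians of 0.41 and -0.04 over all miRNAs compared. miR-30b and miR-30c, which target the repressor RIP140 in mouse fat, rose 10.96-fold and 5.57-fold in SVSC and 3.72-fold and 2.41-fold in IVSC. miR-328 rose 7.31-fold in SVSC (5.08 to 10.5) and 2.99-fold in IVSC (2.24 to 4.03), on 62 to 207 reads a library. miR-32, a cold-induced miRNA of mouse brown fat, rose 4.85-fold in SVSC (4.55 to 5.18) and had a ratio of 1.81 in IVSC. miR-129 fell 2.38-fold in SVSC with a ratio of 0.941 in IVSC. miR-378 fell 2.04-fold in IVSC, a call absent under all reads and without miR-21, with a ratio of 1.35 in SVSC. miR-26a was not called in either culture, and miR-196a lay below 10 CPM.

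Of 12 names linked to less brown or beige activity 10 were detected, of which 6 rose in SVSC and none fell, and 1 rose and 2 fell in IVSC, beside the same shares over all miRNAs, to which the counts in IVSC are near. Their median log2 ratio was 1.17 in SVSC and -0.01 in IVSC. miR-34a, which lowers Fgf21 signalling in obese mice, rose in both cultures, by 4.51-fold in SVSC (4.28 to 4.77) and 3.42-fold in IVSC (3.26 to 3.60). miR-133a and miR-133b, muscle miRNAs that repress the brown fat regulator Prdm16 in mice, rose 9.18-fold and 12.2-fold in SVSC, where miR-133a had no mature read in SVSC MDI and 19 in SVSC and miR-133b stood on 42 and 24 reads. In IVSC miR-133b fell 4.18-fold (3.62 to 4.83) and miR-133a had a ratio of 1.09. miR-125b and miR-199a rose in SVSC by 2.33-fold and 2.16-fold, and miR-214 fell 2.11-fold in IVSC. miR-494 rose 2.79-fold in SVSC on 34 reads in SVSC MDI and 85 in SVSC, none of which lay on the mature miRNA. With all reads as the total, 2 of this list were called higher in SVSC. Calls higher thus stood on both lists in SVSC. miR-155, miR-27a and miR-27b were not called with MDI in either culture.

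**Figure D5:**
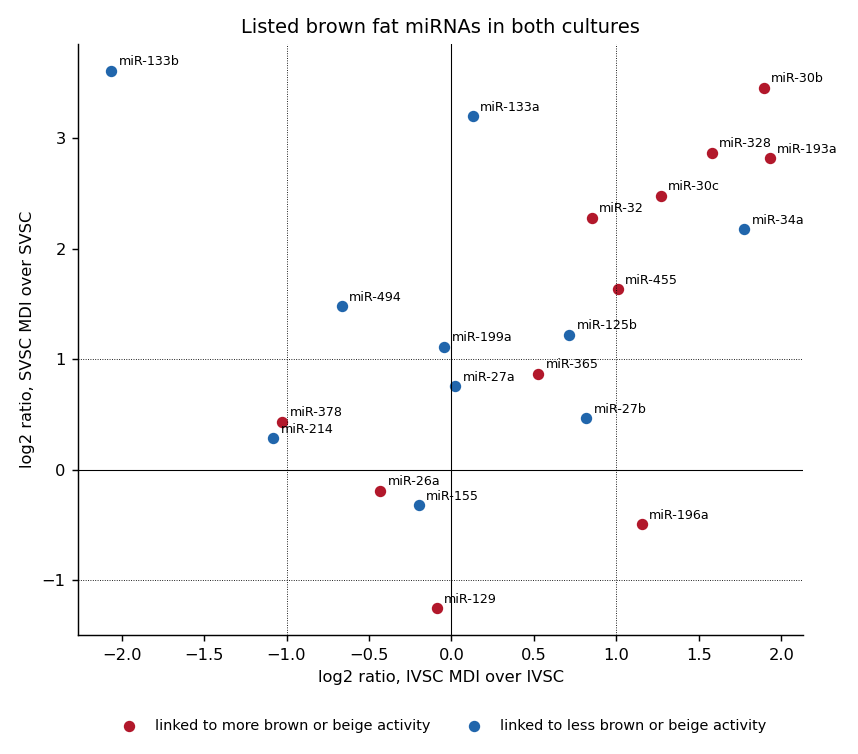
log2 ratio with MDI in IVSC (x axis) and in SVSC (y axis) for the detected miRNAs of the list linked to more brown or beige activity, miR-193a, miR-365 and miR-455 included, and of the list linked to less; 1 point is 1 miRNA, and dotted lines mark 2-fold. miR-196a is drawn although it stayed below 10 CPM. Beyond both 2-fold lines at the upper right, miR-193a lies with miR-455, miR-30b, miR-328 and miR-30c of its own list and miR-34a of the other list. At the upper left, only miR-133b lies beyond both 2-fold lines.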

How the data were processed

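Small RNA was sequenced from 4 cultures of pig cells, from about 10 µg of total RNA, fragments of 16 to 35 nt and 12 cycles of PCR, with 36 cycles of reading, per the labels' protocols. The deposited values are counts of reads per feature, per the file headers, and the features are pig hairpins, piRNAs, Rfam entries and the Ensembl ncRNA set of Sscrofa9.61. The column of uniquely matching mature reads in the SVSC file is of another kind as deposited, since an Rfam entry in it holds a damaged value, and only its hairpin entries, all whole numbers, were used. Entries without a resource name were left out. The submitters' processing notes name the build mm9 without its role; the aligner, the mismatches allowed and the trimming remain unstated (not given in the sources used here). No coordinates or sequences are reported.

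To count a miRNA with several copies only once, its largest copy was taken and the mature reads unique to each other copy were added. For miR-365 this amounts to nearly the sum of the copies. Ratios of CPM were given with exact Clopper-Pearson intervals, levels with exact Poisson intervals and shares with exact binomial intervals, all at 95% (SciPy 1.17.1, Python 3.11.15, pandas 2.3.3, NumPy 2.4.6). Intervals and the floor of 3 reads cover counting error only, since PCR reads are not independent molecules. The interval of a difference of log2 ratios is a normal approximation from the 4 counts.

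Shared effects were fitted with edgeR 4.0.16 (R 4.3.3, limma 3.58.1) after filterByExpr and TMM, at an adjusted p of 0.05; DESeq2 1.42.0 was an alternative. Ratios were tested on simulated counts with counting error only. The shared MDI fit was tested on simulated counts with the same set spread for every miRNA. Neither test shows how far replicate cultures would differ. The miRNAs and lists were chosen with earlier results of these data known. All 3 miRNAs are named, with the 3 nearest patterns of each and every listed miRNA called with MDI. Separate copies, and other scalings of the copies, lists and response differences, were added after the data were seen.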

Additional observations from a re-analysis of the deposited data

Results flagged for a closer look

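The difference between the cultures had opposite signs before and after induction for each of the 3 miRNAs, which is why these values are listed. For miR-193a the log2 ratio was 0.19 for SVSC MDI over IVSC MDI and -0.70 for SVSC over IVSC, a difference of 0.88. For miR-455 it was 0.01 for SVSC MDI over IVSC MDI and -0.62 for SVSC over IVSC, a difference of 0.63. For miR-365 it was 0.31 for SVSC MDI over IVSC MDI and -0.03 for SVSC over IVSC, a difference of 0.34, and for its copy mir-365-1 the values were 0.32 and -0.10, a difference of 0.42. With 1 library a group these differences were not tested. The interval of the ratio includes 1 for miR-455 after induction and for miR-365 before it. The opposite signs depend on the scaling. With TMM factors the log2 ratio of miR-455 was -0.11 for SVSC MDI over IVSC MDI and -0.27 for SVSC over IVSC, and that of miR-365 was 0.19 and 0.31, so neither changed sign, while miR-193a had 0.069 and -0.35. With all reads as the total miR-193a had -0.33 for SVSC MDI over IVSC MDI and -0.51 for SVSC over IVSC.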

How the results depend on the processing

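Of 131 recalculated ratios of the 3 miRNAs between libraries, 121 kept their direction where called and their side of the call. Some of these could not change, so the count overstates the agreement. Without the abundance filter, and at 100 CPM where compared, ratio and call were those of the main setting. For miR-193a and miR-455, which have no copies, taking the largest copy altered only the total. Mature and exact reads were here scaled to their own totals. Below the call were miR-455 in IVSC with TMM (log2 0.97), DESeq2 factors (0.99) and exact reads (0.68), and miR-455 in SVSC with exact reads (0.42). Newly called were miR-365 in SVSC with mature reads (1.24), with the largest copy alone (1.00) and at 1.5-fold (0.87), miR-193a after MDI with mature reads (1.06), and at 1.5-fold miR-193a (-0.70) and miR-455 (-0.62) before MDI. At a minimum of 100 CPM miR-193a before MDI could not be compared. mir-365-1 in SVSC lost its call with TMM (0.50), DESeq2 factors (0.58), all reads (0.52) and without miR-21 (0.60). mir-365-2 before MDI was called higher in SVSC with TMM (1.04), DESeq2 factors (1.06) and without miR-21 (1.03). The cause was not tested.

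The difference of the MDI responses, SVSC minus IVSC, turned negative for miR-365 with TMM (-0.12), DESeq2 factors (-0.065), all reads (-0.36) and without miR-21 (-0.14), and for miR-455 with all reads (-0.077). Its interval included 0 for miR-455 with TMM (0.16) and without miR-21 (0.14), and for miR-193a with all reads (0.18). By construction, scaling adds the same value to the difference of every miRNA.

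The shared MDI effect of miR-193a was 2.20 (adjusted p = 0.0261 with edgeR), 2.16 with DESeq2 (adjusted p = 0.00153) and 2.05 on mature reads (adjusted p = 0.00328). It missed 0.05 without origin in the model (2.20, adjusted p = 0.130) and with the copies as separate features (2.11, adjusted p = 0.0895). Without 1 library the fit left origin out, and the effect was 2.14 without SVSC MDI, 2.03 without SVSC, 2.20 without IVSC MDI and 2.32 without IVSC, where a library alone in its state is assumed to vary like the others. Leaving out a library gave 0.32 to 0.69 for miR-365 and 1.01 to 1.23 for miR-455. For the shared origin effect it gave -1.62 to 1.28 for miR-193a, 0.04 to 0.55 for miR-365 and -0.86 to 0.45 for miR-455. The labels give no replicate numbers to use as a block. With origin in the model, MDI is already compared within each culture.

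Over all miRNAs, the shared MDI fit called 11 higher and 8 lower, against 16 and 19 with DESeq2, 18 and 13 on mature reads, 12 and 5 without TMM, 2 and 1 with separate copies, and 0 and 0 without origin (38 at an unadjusted p under 0.05). Without 1 library it called 0 to 5 higher and 0 to 4 lower. The shared origin fit called 1 higher and 4 lower, against 2 and 8 with DESeq2, 0 higher on mature reads, and none in models without MDI state (2 to 19 at an unadjusted p under 0.05). Of ratios, IVSC MDI over IVSC gave 25 higher and 36 lower, against 40 higher at 1.5-fold, and 21 lower with all reads, 23 on mature reads, 19 on exact reads and 20 at 100 CPM. SVSC MDI over SVSC gave 50 higher and 32 lower, against 33 higher with all reads and 20 lower at 100 CPM. SVSC over IVSC gave 11 higher and 31 lower, against 24 higher with TMM and without miR-21, 28 with DESeq2 factors, 7 on mature reads, 18 on exact reads, and 6 higher and 16 lower at 100 CPM, and 30 and 61 at 1.5-fold. SVSC MDI over IVSC MDI gave 26 higher and 15 lower, against 7 and 29 with all reads, 9 higher on exact reads, 25 lower without miR-21, 8 lower at 100 CPM, and 43 and 28 at 1.5-fold.

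Of the list linked to less brown or beige activity, 1 was higher in IVSC, against 3 at 1.5-fold and 2 with all reads, 2 were lower in IVSC, against 1 with all reads and 1 without miR-21, and 6 were higher in SVSC, against 3 with TMM and 2 with all reads. Of the other list, 1 was lower in IVSC, against 0 with all reads and 0 without miR-21.

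Counting exact matches as the only mature reads, the mature share of mir-193a was 48.1% in SVSC MDI, 45.7% in SVSC, 25.7% in IVSC MDI and 36.3% in IVSC. In the same order it was 66.3%, 68.9%, 69.6% and 75.03% for mir-365-1, 10.3%, 6.52%, 9.43% and 2.94% for mir-365-2, and 14.5%, 25.7%, 16.95% and 22.7% for mir-455. Depth limits mir-365-2 most, with 68 reads in SVSC MDI.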

Other observations

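The listed miRNAs of brown and beige fat were also set side by side between the cultures. Before induction, of 9 compared on the list linked to more activity miR-129 was 11.6-fold higher in SVSC than in IVSC (11.01 to 12.2) and miR-32 was 3.31-fold lower (3.15 to 3.47). After induction miR-129 was 5.17-fold higher in SVSC MDI than in IVSC MDI (4.81 to 5.55) and miR-30b 2.09-fold higher (2.04 to 2.14), of 10 compared, and none was lower. Over all miRNAs compared, 7.43% were higher and 20.9% lower in SVSC before induction, and 17.7% higher and 10.2% lower in SVSC MDI after it. Both values of miR-129 rest mostly on reads outside the mature miRNA. Before induction 2037 of its 24217 reads in SVSC and 404 of its 1543 reads in IVSC were mature. After induction its mature reads were 52 in SVSC MDI and 410 in IVSC MDI, fewer also for the depth of the library. Of 10 on the list linked to less activity, before induction miR-27b was 2.58-fold higher in SVSC, and miR-133a, miR-133b and miR-494 were 3.61-fold, 51.4-fold and 8.74-fold lower. After induction miR-133a, miR-27b and miR-214 were 2.32-fold, 2.02-fold and 2.20-fold higher in SVSC MDI than in IVSC MDI. Few or none of the reads of miR-133a and miR-494 were mature, with 19 for miR-133a in SVSC and 11 in IVSC, 0 in SVSC MDI and 5 in IVSC MDI, and 0 for miR-494 in every library.

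Outside the pig hairpins, Rfam entries of the mir-365 family held 1 read in SVSC MDI and 1 in IVSC MDI, and those of mir-193 and mir-455 had no read.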
